A study of Homo sapiens with 6 samples.

Results

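The miR-320 family of mature microRNAs was followed in small RNA libraries of A549 cells. It was taken as every entry of the deposited table whose name begins hsa-miR-320 followed by a letter from a to e, which gave 4 members, hsa-miR-320a, hsa-miR-320b, hsa-miR-320c and hsa-miR-320d (written below without the species prefix), of 787 mature miRNAs listed. A549 is a widely used human cell line that was derived from a lung adenocarcinoma and is labelled epithelial. The first group held 3 libraries from A549 cells transfected with pcDNA4-SMARCA4, a plasmid that carries SMARCA4, and the second held 3 libraries from A549 cells transfected with empty pcDNA4. All cells received plasmid with a lipid reagent and were taken 48 h later. According to the labels the purpose was to restore SMARCA4, the ATPase also called BRG1 that drives the SWI/SNF chromatin remodelling complex. Each library is a transfected population of 1 line, and neither SMARCA4 mRNA nor the share of cells that took up plasmid was analysed here. All 7 listed arms of the epithelial miR-200 family had reads, the most abundant being miR-200b-3p at 190 ± 51.8 normalized read counts in SMARCA4 cells and 422 ± 123 in empty vector cells (SD, n = 3 each; log2 fold change −1.14, limma adjusted p = 0.109). Some were near the floor, with between 1 and 8 reads of miR-200c-3p and of miR-141-5p in each library. Of the 7 arms 1 passed the test, where 1.41% of the miRNAs tested did. This was miR-141-3p, which rose to 182 ± 30.3 in SMARCA4 cells, against 31.4 ± 10.8 in empty vector cells (SD, n = 3 each; log2 fold change 2.55, limma adjusted p = 0.0124). Its call was lost without SMARCA4 replicate 1 or 3 or empty vector replicate 1 or 3 (limma adjusted p between 0.0547 and 0.0853) and with libraries rescaled to the same total (0.0519). The part of these epithelial miRNAs in the values of the miR-320 family was not tested. Lung identity was not checked further.

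Most miRNAs are cut out of a long primary transcript by the nuclease Drosha with its partner DGCR8, exported, and cut again by Dicer. miR-320 is known for a different route. In mouse cells the precursor of miR-320 is transcribed directly as a short capped hairpin that needs Dicer but not Drosha or DGCR8. The precursor of miR-484 follows the same route to Dicer. The precursor of miR-320 gives almost only its 3p strand to Argonaute. miR-320a is known to repress CTNNB1, the beta-catenin of Wnt signalling, and PFKM, a phosphofructokinase of glycolysis. No library here lacked Drosha or DGCR8, so the processing route is background and was not measured.

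The members share almost their whole sequence, which bears on every value below. The RefSeq table (GRCh38.p14) gave a mature sequence for 3 of the 4. They are shown 5′ to 3′ with the seed, bases 2 to 8, in capitals.
miR-320b: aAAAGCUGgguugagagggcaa
miR-320c: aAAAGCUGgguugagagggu
miR-320d: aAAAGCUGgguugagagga
All 3 carry the seed AAAGCUG. miR-320b and miR-320c share their first 19 bases and first differ at C20U, counted from 1 at the 5′ end with the base of miR-320b first. miR-320d, at 19 bases the shortest, shares its first 18 bases with both and differs from miR-320b at G19A. A read that ends before these positions cannot be assigned to 1 member, and how the counting treated such reads is not stated in these sources. Among RefSeq's mature miRNAs, 4 names carry this seed, and 3 of them were listed in the deposited values, namely miR-320b, miR-320c and miR-320d. miR-320a had no mature sequence there, so its seed and the bases that set it apart from the other members were not compared.

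Each of these 3 sequences is encoded by 2 hairpins, so a count cannot be assigned to a locus. Those of miR-320b are shown with the mature strand in capitals; it lies on the 3′ side of each hairpin and is identical in both, while the other side differs.
MIR320B1: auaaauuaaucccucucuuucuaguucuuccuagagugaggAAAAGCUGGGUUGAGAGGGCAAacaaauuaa
MIR320B2: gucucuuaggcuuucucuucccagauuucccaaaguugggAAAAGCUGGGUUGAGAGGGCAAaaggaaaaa
MIR320B1 lies at chr1:116671746-116671817 on the plus strand, in no other gene of GENCODE 29. MIR320B2 lies at chr1:224257040-224257110 on the minus strand, in an intron of NVL, which encodes a ribosome assembly ATPase, on the same strand. MIR320C1 (chr18:21683518-21683589, plus strand) and MIR320C2 (chr18:24321675-24321746, plus strand) lie in introns of ABHD3 and OSBPL1A, each on the opposite strand. MIR320D1 (chr13:40727816-40727887) and MIR320D2 (chrX:140926160-140926231) lie on the minus strand and in no other annotated gene.

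The deposited values are normalized read counts, a whole number of reads multiplied by 1 factor per library, and the reads could be recovered from them. SMARCA4 replicate 2 held 7274329 reads and the other 5 libraries between 701885 and 1079944. That library stands apart from the rest in depth, at 8.33 times the mean of the other 5, and the members' fold changes and ratios between groups are therefore also given without it. The deposited values of SMARCA4 replicate 2 also summed to more, at 3.07e+06 against between 1.66e+06 and 1.84e+06 in the other 5. Nothing in the labels beyond the design text's word biological says that the replicates came from separate cultures, so p-values measure the spread between these samples. A bulk library cannot separate fewer cells that express a miRNA from less of it per cell. Intervals on reads cover counting error only, because amplified reads without molecular identifiers are not independent molecules.

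hsa-miR-320a was by far the most abundant member. It stood at 2730, 27294 and 2628 normalized read counts in SMARCA4 replicates 1, 2 and 3, against 1652, 2887 and 1805 in empty vector replicates 1, 2 and 3. SMARCA4 replicate 2 was high, the other SMARCA4 libraries were below empty vector replicate 2, and the groups overlapped. The mean was 10884 ± 14212 in SMARCA4 cells and 2115 ± 673 in empty vector cells (SD, n = 3 each). As a difference of log2(value + 1), in which the added 1 shrinks changes at low counts, the log2 fold change was 1.50 (SE 0.79, 95% interval −0.28 to 3.28). It did not pass limma, a linear model fitted over the 637 miRNAs with a mean of at least 1 (limma adjusted p = 0.284), nor edgeR on the recovered reads (adjusted p = 0.123). DESeq2 on the recovered reads gave a log2 fold change of 2.30 for miR-320a but no p. With libraries rescaled to the same total the log2 fold change was 1.18 (limma adjusted p = 0.273). Without SMARCA4 replicate 2 the log2 fold change was 0.39 (95% interval −0.21 to 0.98, limma adjusted p = 0.393). The ratio of the group means, 5.15 with all libraries, was 1.27 without that library.

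hsa-miR-320b, with the seed shown above, stood at 57.5, 420 and 80.3 normalized read counts in SMARCA4 replicates 1, 2 and 3, against 37.7, 43.7 and 39.2 in empty vector replicates 1, 2 and 3. It was the only 1 of the 4 members whose groups did not overlap, with every SMARCA4 library above every empty vector library; 15.9% of the 637 miRNAs tested had groups that did not overlap in this direction. The mean was 186 ± 203 in SMARCA4 cells and 40.2 ± 3.13 in empty vector cells (SD, n = 3 each). The log2 fold change was 1.62 (SE 0.67, 95% interval 0.11 to 3.12), with an unadjusted p of 0.0377 and a limma adjusted p of 0.190. An unadjusted p under 0.05 was reached by 22.6% of the miRNAs tested. Without SMARCA4 replicate 2 the log2 fold change of miR-320b was 0.74 (95% interval −0.07 to 1.56, limma adjusted p = 0.229). DESeq2 on the recovered reads passed miR-320b with an adjusted p of 0.0170, where 6% of the 400 miRNAs with a defined adjusted p passed in this direction, and edgeR did not, with an adjusted p of 0.107. Without SMARCA4 replicate 2 DESeq2 did not pass it (log2 fold change 0.80, adjusted p = 0.270), a setting chosen after the data were seen.

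miR-320c and miR-320d were scarce, so few reads stand behind their values. hsa-miR-320c was at 20.9, 57.5 and 21.2 normalized read counts in SMARCA4 replicates 1, 2 and 3, from 8, 136 and 9 reads, against 11.3, 11.4 and 22.9 in empty vector replicates 1, 2 and 3, from 6, 6 and 14 reads. SMARCA4 replicate 2 was again the highest, while empty vector replicate 3 lay above the other SMARCA4 libraries. The log2 fold change of miR-320c was 0.99 (95% interval −0.25 to 2.23, limma adjusted p = 0.311), and 0.52 without SMARCA4 replicate 2. hsa-miR-320d had 2, 13 and 1 reads in SMARCA4 replicates 1, 2 and 3, against 2, 1 and 0 reads in empty vector replicates 1, 2 and 3. On the normalized scale that was 5.23, 5.49 and 2.36 against 3.77, 1.90 and 0. The exact 95% Poisson interval of the 0 in empty vector replicate 3 reached up to 6.03 normalized read counts. Pooled over each group, 16 reads of miR-320d in SMARCA4 cells stood against 3 in empty vector cells. Scaled by the deposited factors rather than by read totals, that gave a ratio of 2.80 (exact 95% interval 0.802 to 15.0). Without SMARCA4 replicate 2, 3 reads in SMARCA4 cells against 3 in empty vector cells gave a ratio of 2.07 with the same scaling (exact 95% interval 0.277 to 15.4). The groups of miR-320d overlapped, and its level was not distinguishable between them at this depth (log2 fold change 1.10, limma adjusted p = 0.402, and 0.93 with adjusted p = 0.553 without SMARCA4 replicate 2).

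**Figure D1:**
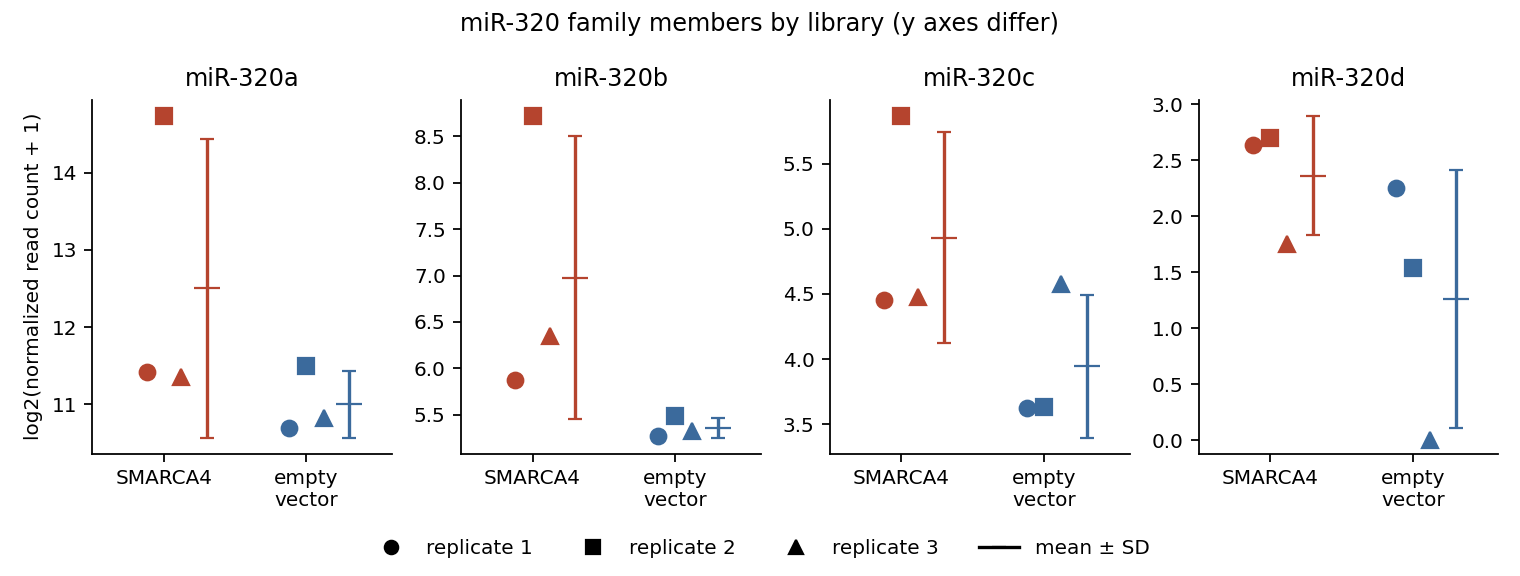
Each point is 1 library, with log2(normalized read count + 1) on the y axis, SMARCA4 libraries left and empty vector libraries right, and bars for the mean ± SD of each group of 3. SMARCA4 replicate 2 lies far above the other 5 libraries for miR-320a, miR-320b and miR-320c, and level with SMARCA4 replicate 1 for miR-320d.

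Across the family, then, 0 of 4 members passed the test at an adjusted p under 0.05, which 1.41% of the miRNAs tested did in either direction and 0.942% did on the higher side with SMARCA4. All 4 had a log2 fold change above 0, where 48.4% of the miRNAs tested did. The 4 share sequence and libraries and are not independent of each other. Leaving out any 1 library kept each member's log2 fold change above 0, between 0.39 and 2.07 for miR-320a, 0.74 and 2.17 for miR-320b, 0.52 and 1.31 for miR-320c, and 0.47 and 1.59 for miR-320d. The lowest values of the first 3 came from leaving out SMARCA4 replicate 2, which moved the changes of miR-320a and miR-320b most. For miR-320d the lowest came without empty vector replicate 3, the library with 0 reads.

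**Figure D2:**
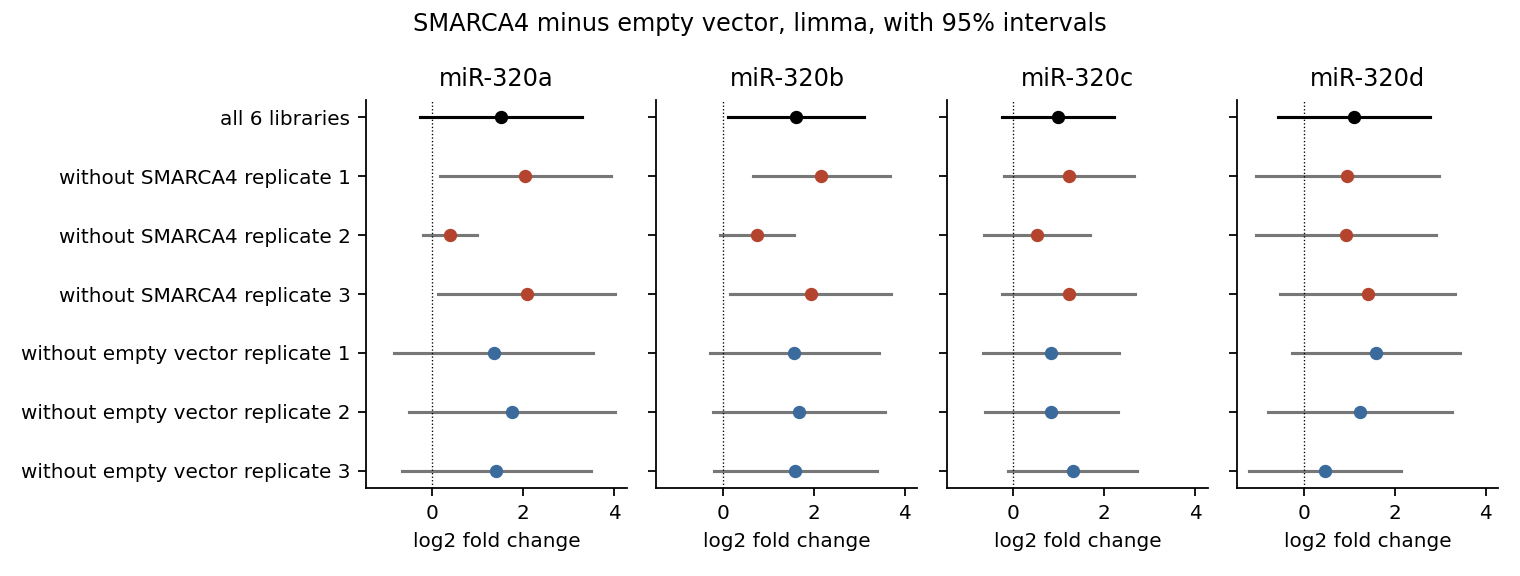
Points give the limma log2 fold change of SMARCA4 over empty vector cells and lines its 95% interval, with all 6 libraries in the top row and each library left out in turn below it. Leaving out SMARCA4 replicate 2 brings miR-320a to 0.39 and miR-320b to 0.74, with intervals that include 0 for both.

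The members differed in how far SMARCA4 replicate 2 stood from the other libraries. On the deposited scale miR-320a there was 9.45 times the next highest library, miR-320b 5.24 times, miR-320c 2.51 times and miR-320d 1.05 times. That library was the highest of the 6 for all 4 members, as it was for 27.2% of the miRNAs tested, and at least 2 times the next highest for 3 members, as it was for 9.11% of the miRNAs tested. This comparison was chosen after the values were seen. On the log2(value + 1) scale, SMARCA4 replicate 2 exceeded the mean of the other 5 libraries by 3.58 for miR-320a, 3.06 for miR-320b, 1.72 for miR-320c and 1.06 for miR-320d, while the median over the 637 miRNAs tested was 0.14 and 5% of them exceeded 2.30. Among all 637, miR-320a ranked 7 by this difference, miR-320b ranked 11, miR-320c ranked 71 and miR-320d ranked 135. Among the 199 whose mean over the other 5 libraries was at least 100, miR-320a ranked 1. The value of miR-320a in that library rests on 64602 reads, and its exact Poisson interval was 27084 to 27505 normalized read counts. The part of the library's depth in this difference was not tested.

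**Figure D3:**
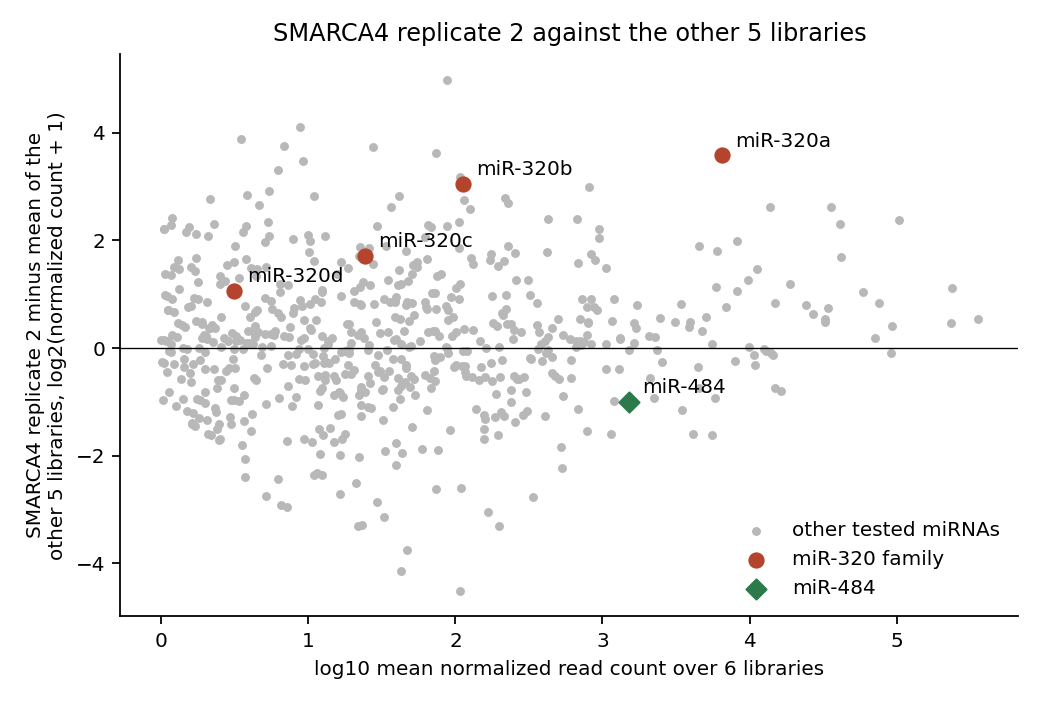
Each point is 1 of the 637 miRNAs tested, with its mean level on the x axis (log10 normalized read count) and SMARCA4 replicate 2 minus the mean of the other 5 libraries on the y axis (log2 scale). miR-320a at 3.58 ranks 7 and miR-320b at 3.06 ranks 11 of the 637 points, and miR-484 lies below 0.

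The share of the library that the family took up does not depend on the factor between libraries. The 4 members together made up 0.153%, 0.904% and 0.151% of all miRNA reads in SMARCA4 replicates 1, 2 and 3, against 0.103%, 0.166% and 0.106% in empty vector replicates 1, 2 and 3. Empty vector replicate 2 was thus above SMARCA4 replicates 1 and 3, and the groups overlapped. miR-320a ranked 54, 20 and 54 among all listed miRNAs in SMARCA4 replicates 1, 2 and 3, against 59, 52 and 61 in empty vector replicates 1, 2 and 3. In SMARCA4 replicate 2 it therefore moved up by rank as well as by value. miR-320a alone made up 0.888% of that library, against 0.163% in empty vector replicate 2, the next highest.

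Within the family the share of miR-320b varied less across libraries than its level did. miR-320b made up 2.04%, 1.51% and 2.94% of the family's reads in SMARCA4 replicates 1, 2 and 3, against 2.21%, 1.49% and 2.10% in empty vector replicates 1, 2 and 3. The exact 95% binomial interval of SMARCA4 replicate 2 was 1.42% to 1.61%, which overlapped those of the other libraries except SMARCA4 replicate 3 (2.04% to 4.08%). The log2 ratio of miR-320b to miR-320a averaged −5.53 ± 0.50 in SMARCA4 cells and −5.64 ± 0.33 in empty vector cells (SD, n = 3 each), a difference of 0.11 with a two-sided exact permutation p of 1. The sign of that difference turned without SMARCA4 replicate 3 (−0.14) or empty vector replicate 2 (−0.07). A design of 3 against 3 cannot give an exact p under 0.1. In all 4 ratios were compared, and the Benjamini-Hochberg adjusted exact p was 1 for each.

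The share of miR-320c was lowest in SMARCA4 replicate 2. It made up 0.743%, 0.207% and 0.778% of the family's reads in SMARCA4 replicates 1, 2 and 3, against 0.664%, 0.388% and 1.23% in empty vector replicates 1, 2 and 3. The exact interval of SMARCA4 replicate 2, 0.174% to 0.245%, lay below those of SMARCA4 replicate 1 (0.322% to 1.46%), SMARCA4 replicate 3 (0.356% to 1.47%) and empty vector replicate 3 (0.672% to 2.05%). Between the groups the log2 ratio of miR-320c to miR-320a differed by −0.51 (exact permutation p = 0.7), and by 0.13 without SMARCA4 replicate 2, so the direction rested on that library. The ratio of miR-320d to miR-320a differed by −0.40 (exact permutation p = 0.8), by 0.54 without that library and by 0.25 without empty vector replicate 1, from the few reads given above.

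**Figure D4:**
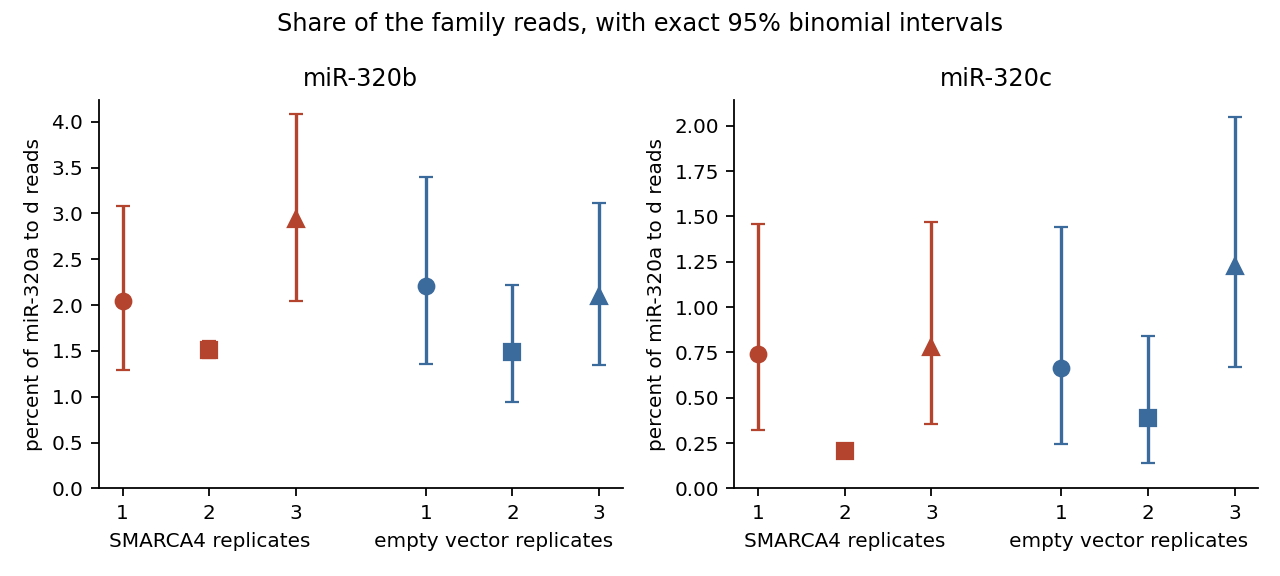
The y axis is the percent of all miR-320a to miR-320d reads that belong to miR-320b (left) and miR-320c (right) in each library, and lines are exact 95% binomial intervals. The share of miR-320b in SMARCA4 replicate 2 is 1.51% beside 1.49% in empty vector replicate 2, and the share of miR-320c there, 0.207%, is the lowest of the 6 libraries.

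The spread between replicates was set against counting error in each group. In SMARCA4 cells the coefficient of variation of miR-320a was 131% with all 3 libraries, where counting alone gives 0.837%, and 2.69% without replicate 2, where counting alone gives 3.05%. The coefficient of variation in all 3 SMARCA4 libraries was 109% for miR-320b and 63.2% for miR-320c, above the 7.06% and 19.8% from counting, and for miR-320d it was 39.8%, below the 61.5% from counting. In empty vector cells the coefficient of variation was 31.8% for miR-320a, where counting alone gives 2.94%. For miR-320b in the same cells it was 7.79%, under the 21.2% that counting alone gives. The empty vector values of miR-320b came from 20, 23 and 24 reads and lay closer together than counting error would place them on average. For miR-320c the coefficient of variation in empty vector cells was 43.8%, against 34.1% from counting, and for miR-320d 99.7%, close to the value from counting.

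miR-484, whose precursor is capped in the same way, gave another picture over the libraries. It was at 2168, 773 and 2144 normalized read counts in SMARCA4 replicates 1, 2 and 3, against 1401, 747 and 1822 in empty vector replicates 1, 2 and 3. Replicate 2 was the lowest library of each group for miR-484, and for miR-320a it was the highest of each group. The log2 fold change of miR-484 was 0.30 (SE 0.47, 95% interval −0.77 to 1.38, limma adjusted p = 0.726), and 0.80 without SMARCA4 replicate 2 (limma adjusted p = 0.184). The ratio of miR-320a to miR-484 was 1.26, 35.3 and 1.23 in SMARCA4 replicates 1, 2 and 3, against 1.18, 3.86 and 0.991 in empty vector replicates 1, 2 and 3. On the log2 scale the groups differed by 1.20 (exact permutation p = 0.5), and by −0.41 without SMARCA4 replicate 2. This ratio was also chosen after the values were seen. MIR484 lies at chr16:15643294-15643372 on the plus strand, over an exon of NDE1 on the same strand.

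**Figure D5:**
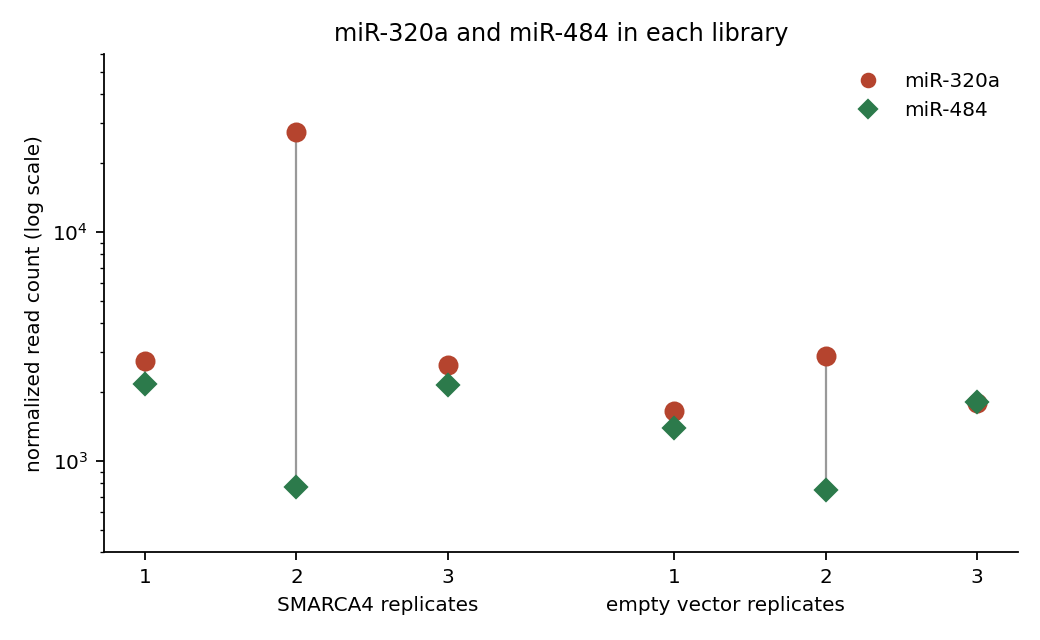
Normalized read counts (log scale) of miR-320a (circles) and miR-484 (diamonds) are joined by a line in each library. The 2 lie near each other in replicates 1 and 3 of both groups and apart in replicate 2 of both groups, by 35.3 times in SMARCA4 cells and 3.86 times in empty vector cells.

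Other miRNAs that reach Dicer by unusual routes gave 0 calls by limma, which called 1.41% of all miRNAs tested. With so few of them tested, 0 calls is near that background. DESeq2 called 1 of them, described last, where it called 47 of the 400 miRNAs with a defined adjusted p. Mirtrons are short introns that splicing turns into hairpins. Of the listed arms from 12 proposed mirtrons, 1 of 6 was abundant enough to test. This was miR-877-5p, from an intron of ABCF1, at 34.0, 60.8 and 37.8 normalized read counts in SMARCA4 replicates 1, 2 and 3, against 45.3, 79.9 and 31.1 in empty vector replicates 1, 2 and 3 (log2 fold change −0.17, 95% interval −1.21 to 0.87, limma adjusted p = 0.859; −0.42 without SMARCA4 replicate 2). Its groups overlapped.

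Of hairpins that overlap small nucleolar RNAs, the guides of ribosomal RNA modification, 5 arms were tested, with a median log2 fold change of −0.23 beside −0.05 over all miRNAs tested. The most abundant were miR-3651 (log2 fold change 0.51, limma adjusted p = 0.690; adjusted p = 0.999 without SMARCA4 replicate 2) and miR-664a-3p (log2 fold change −0.23, limma adjusted p = 0.943; 1.28 with adjusted p = 0.219 without SMARCA4 replicate 2). miR-664a-3p was at 62.8, 2.53 and 102 normalized read counts in SMARCA4 replicates 1, 2 and 3, against 13.2, 57.1 and 44.1 in empty vector replicates 1, 2 and 3, so SMARCA4 replicate 2 was its lowest library. Of the 5 arms 1 had an unadjusted p under 0.05 and groups that did not overlap, near the shares over all miRNAs tested of 22.6% and 31.1% in either direction. This was miR-3607-3p, at 7.84, 5.91 and 2.36 normalized read counts in SMARCA4 replicates 1, 2 and 3, against 22.6, 112 and 8.18 in empty vector replicates 1, 2 and 3. Its log2 fold change was −2.30 (limma adjusted p = 0.161), and −1.32 without empty vector replicate 2. DESeq2 passed it with an adjusted p of 0.0161, where 47 of the 400 miRNAs with a defined adjusted p passed in either direction. edgeR did not pass it, with an adjusted p of 0.102. miR-3607-3p was named after its values were seen.

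The miRNAs whose course over the 6 libraries was most like that of miR-320a were found by the root mean square difference of log2(value + 1) centred over the libraries, among 420 others with a mean of at least 10. In order they were miR-196a-5p (0.33), miR-320b (0.35), let-7i-5p (0.47), miR-196b-5p (0.48) and let-7e-5p (0.50), where the median over the 420 was 1.43. miR-320c ranked 37 by this measure, with 0.84, and miR-484 ranked 344, with 1.82. miR-196a-5p, a miRNA encoded within HOX gene clusters, was at 400, 2982 and 467 normalized read counts in SMARCA4 replicates 1, 2 and 3, against 322, 342 and 342 in empty vector replicates 1, 2 and 3. let-7i-5p, a member of the let-7 family, was at 19273, 117822 and 20633 in SMARCA4 replicates 1, 2 and 3, against 19723, 18438 and 17854 in empty vector replicates 1, 2 and 3. All 5 were highest in SMARCA4 replicate 2, at between 4.04 and 6.38 times the next highest library, so the likeness describes that library first.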

How the data were processed

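The authors deposited 1 table of normalized signal, a read count per mature miRNA multiplied by 1 factor per library, and the table's name speaks of TMM scaling. bcl2fastq 2.18.0.12 made the read files and GRCh38 was the build, per the submitters' processing notes; the sources used here name no trimmer, aligner, counter or miRNA annotation. Per the labels' protocols, libraries came from a TruSeq small RNA kit, whose ligation efficiency differs between miRNAs, so levels of different members compare less well than libraries do. The value of 1 read ranged from 0.422 to 2.61, and 100% of values were whole multiples of it within 1e-06 reads.

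The test was limma 3.58.1 (R 4.3.3) on log2(value + 1) with a mean-variance trend and a group term alone. It ran over the 637 miRNAs with a mean of at least 1, which included all 4 members. Benjamini-Hochberg adjustment covered all 637, with a threshold of 0.05. edgeR 4.0.16 called 8 miRNAs and DESeq2 1.42.0 called 47 on the recovered reads; limma called 9. The script was tested on simulated data. Ratios within a library were compared by exact two-sided permutation. Other settings were pseudocounts of 0.5 and 5, no filter, a mean of at least 10, rescaled libraries, limma without its trend and each library left out. Members, lists and tests were chosen with earlier results of these data known. Named miRNAs were the members, miR-484, any changed and the 2 most abundant miRNAs of each list, including a list of miR-200 arms added to check the epithelial label, and the 5 most like miR-320a. Sequences are from RefSeq (GRCh38.p14) and overlapping genes from GENCODE 29. Replicate numbers were taken from the titles.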

Additional observations from a re-analysis of the deposited data

How the results depend on the processing

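The log2 fold changes of miR-320a, miR-320b, miR-320c and miR-320d kept their direction under every setting that gave a value, and the 1 change of call was miR-320b, which DESeq2 passed at a log2 fold change of 2.18 (adjusted p = 0.0170). DESeq2 gave miR-320a no p and no adjusted p, and gave miR-320d an unadjusted p of 0.464 but no adjusted p. With a mean of at least 10 miR-320d was not tested. With 1 library left out, the difference in the log2 ratio to miR-320a ranged from −0.14 to 0.36 for miR-320b, from −0.92 to 0.13 for miR-320c and from −1.09 to 0.54 for miR-320d, and that of miR-320a to miR-484 from −0.41 to 2.01. The log2 share of the family stayed between 0.32 and 1.61 higher in SMARCA4 cells. The number of miRNAs called over the whole table ranged from 0 to 41 with 1 library left out, beside 9 (6 higher, 3 lower) with all 6. The 41 (17 higher), of 637 tested, came without SMARCA4 replicate 2, and leaving out any other library gave at most 12. The number called was 47 by DESeq2 and 12 (4 higher, 8 lower) with libraries rescaled to the same total. That rescaling moved the median log2 fold change over all miRNAs to −0.31, beside −0.05. In a setting added after the data were seen, DESeq2 without SMARCA4 replicate 2, the log2 fold change was 0.36 for miR-320a (adjusted p = 0.461) and 0.80 for miR-320b (adjusted p = 0.270). DESeq2 with all libraries called 1 miRNA of the capped, mirtron and small nucleolar RNA lists, miR-3607-3p. The causes were not tested.

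Same-numbered libraries correlated at 0.07, 0.09 and 0.01 in their deviations from the group means, under the 0.1 needed to treat the numbers as pairs, and 5 of the 6 libraries correlated best with their own number. With the replicate block the limma adjusted p was 0.151 for miR-320a and 0.146 for miR-320b, and 13 miRNAs were called. The log2 ratios to miR-320a differed by the same amounts as without the block, which the balanced design fixes in advance. Depth limits miR-320d in every library, with at most 13 reads, and miR-320c in all but SMARCA4 replicate 2, with at most 14.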
